A study of Rattus norvegicus with 10 samples.

Results

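The genes described here encode enzymes that make and convert ceramide and sphingosine, the core lipids of the sphingolipid pathway. They were listed by symbol: the desaturases Degs1 and Degs2, the ceramide synthases Cers1, Cers2, Cers4 and Cers6, the sphingosine kinases Sphk1 and Sphk2, the serine palmitoyltransferase subunit Sptlc2 and the glucosylceramide synthase Ugcg. A gene was measured through a probe set that the annotation assigns to it alone, which was found for 7 of the 10 genes, out of 18166 genes with such a probe set on the array. Each of the 7 had a single probe set. Cers1 lay only on a probe set shared with Gdf1, a growth factor gene with the same coordinates in the rat annotation, and is given no value. The annotation used here lists no probe set for Cers6 or Sptlc2. The genes were chosen by name, with earlier results of these arrays known, and Degs2 was selected on its log2 difference from sham, which was among the largest falls. The differences of Degs2 from sham are therefore given as a description without a test.

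RNA from the left cortex of adult male Sprague-Dawley rats was hybridized to Affymetrix rat gene arrays 3 hours after surgery, and the arrays are labelled as biological replicates. The question was how an arterial occlusion and the growth factor neuregulin-1 (NRG1) change gene expression early in the cortex. In the MCAO+NRG1 group (n = 3), the left middle cerebral artery was occluded permanently with an intraluminal suture, and the EGF-like domain of NRG1β in 1% bovine serum albumin was injected into the internal carotid artery just before the occlusion, according to the methods; the sample descriptions place the treatment after it. The MCAO group (n = 3) had the same occlusion and an injection of 1% bovine serum albumin in phosphate buffered saline, and the sham group (n = 4) had the surgery with no filament in the internal carotid artery. Bulk tissue was used, so fewer cells of a type and less RNA per cell cannot be told apart.

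In the pathway, serine palmitoyltransferase joins serine to a fatty acid, ceramide synthases add an acyl chain to give dihydroceramide, and DEGS1 inserts the double bond that turns it into ceramide. DEGS2 can also add a hydroxyl group and so yields phytoceramide. Ceramide is built into sphingomyelin, into glucosylceramide by UGCG and from there into gangliosides, which are abundant in brain, or it is cleaved to sphingosine. The sphingosine kinases make sphingosine 1-phosphate (S1P), a ligand of the S1PR receptors on vessels, glia and immune cells. Ceramide is widely linked to cell death and S1P to survival and vascular barrier signalling.

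The stretch of 250 bases before the annotated start of each desaturase gene is printed because the results turn on these related genes. Sequences are from RefSeq on assembly GRCr8, where 9 of the 10 listed genes had an entry, and read 5′ to 3′ on the strand of the gene, the minus strand in both. Degs2 lies at chr6:133377678-133377927 and Degs1 at chr13:96485303-96485552. Capitals mark GC boxes, searched as GGGCGG on both strands, that is also as CCGCCC:
Degs2: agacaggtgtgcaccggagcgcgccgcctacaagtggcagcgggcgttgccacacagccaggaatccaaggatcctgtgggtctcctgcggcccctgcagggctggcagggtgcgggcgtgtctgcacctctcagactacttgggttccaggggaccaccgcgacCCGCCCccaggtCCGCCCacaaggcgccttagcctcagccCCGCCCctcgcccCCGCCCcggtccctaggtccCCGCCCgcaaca
Degs1: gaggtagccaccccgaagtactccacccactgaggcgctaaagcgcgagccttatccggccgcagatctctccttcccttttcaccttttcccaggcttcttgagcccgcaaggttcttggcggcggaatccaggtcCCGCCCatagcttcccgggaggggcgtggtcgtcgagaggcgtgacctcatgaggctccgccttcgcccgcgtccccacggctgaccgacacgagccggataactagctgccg
The Degs2 window held 5 GC boxes and the Degs1 window 1, all on the reverse strand, and at least 1 was found in 30.5% of all 33469 windows of this length. GC content was 71.2% for Degs2 and 64.4% for Degs1. Neither window held ACGTG, the core of hypoxia response elements (16.6% of windows), or CCGGAA, a core of ETS factor sites (12.6%). A match of letters is a description and not a binding site.

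The arrays differed in level. The deposited log2 values had array medians of 5.79 to 5.81 in MCAO+NRG1, 5.80 and 5.82 in MCAO replicates 1 and 2, 6.12 in MCAO replicate 3 and 6.05 to 6.11 in sham, taken across 18511 probe sets that carry 1 gene name each. Exactly equal values in the same probe set showed 3 sets of arrays. The MCAO+NRG1 arrays and MCAO replicates 1 and 2 shared 534 to 809 of 36685 values pairwise, the sham arrays 20 to 44, and arrays of different sets 0 to 2. MCAO replicate 3 stood alone and held 9146 distinct values, against 32181 to 34196 in the other arrays. The sham group thus formed a set of its own, and in both comparisons with sham the set and the surgery cannot be told apart. Results that rest on MCAO replicate 3 are given with and without it. Over all tested probe sets the median log2 difference was −0.16 for MCAO minus sham, −0.08 for MCAO+NRG1 minus MCAO and −0.24 for MCAO+NRG1 minus sham. Shifting the arrays to a common median raises every difference by 0.16, 0.11 and 0.27 log2. It also turns the balance of calls: against sham, MCAO had 203 probe sets called higher and 1038 lower as deposited, 407 and 197 once centred, and 396 and 346 with quantiles made equal across arrays (quantile normalization). MCAO+NRG1 had 279 higher and 2920 lower as deposited, 707 and 288 once centred, and 553 and 488 with equal quantiles. Signal near background was taken as 4.64 log2, the level that 95% of 1358 olfactory and vomeronasal receptor probe sets lay under. The 9 measured neuron markers averaged at least 9.30 over the arrays, and none of them was called in any comparison.

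Degs2, the gene of the desaturase that can yield phytoceramide, was lower in both occluded groups than in sham. It stood at 4.22, 4.01 and 4.59 log2 in the MCAO+NRG1 arrays, at 4.84, 4.27 and 5.83 in the MCAO arrays, and at 6.14, 6.37, 6.27 and 6.47 in the sham arrays. Every occluded array lay below every sham array, while the MCAO array at 5.83, replicate 3, stood nearest to sham. All 3 MCAO+NRG1 arrays and MCAO replicate 2 were under the background level of 4.64, so the sizes of the falls are not exact. The difference of MCAO from sham was −1.33 ± 0.27 log2 (SE), or 39.7% of the sham level, and without MCAO replicate 3 the difference was −1.76 ± 0.20. Without MCAO replicate 2 it was −0.98. MCAO+NRG1 minus sham was −2.04 ± 0.27 log2, or 24.3% of the sham level. After median centring the differences were −1.17 ± 0.24 for MCAO and −1.77 ± 0.24 for MCAO+NRG1.

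Degs1, the gene of the main dihydroceramide desaturase, differed much less. Its values were 9.25, 9.18 and 9.15 log2 in MCAO+NRG1, 9.25, 9.12 and 9.45 in MCAO, and 9.41, 9.52, 9.45 and 9.67 in sham. The MCAO+NRG1 arrays lay below all sham arrays and the MCAO arrays overlapped them through replicate 3. The difference was −0.24 ± 0.15 (SE) for MCAO minus sham (adjusted p = 0.282 in limma) and −0.32 ± 0.15 for MCAO+NRG1 minus sham (adjusted p = 0.131). Without MCAO replicate 3 the first was −0.33 ± 0.14 (adjusted p = 0.103). After median centring of all 10 arrays the differences were −0.08 ± 0.13 and −0.055 ± 0.13. The log2 difference of Degs2 minus Degs1 within an array is unchanged by a uniform shift of that array, but not by quantile normalization. Relative to its sham mean it was −1.83, −1.97 and −1.35 in MCAO+NRG1, −1.21, −1.65 and −0.42 in MCAO, and −0.07 to 0.05 in sham. These values follow from the choice of Degs2 for its fall, and those of the MCAO+NRG1 arrays and MCAO replicate 2 are not exact sizes, since Degs2 was under the background level there.

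**Figure D1:**
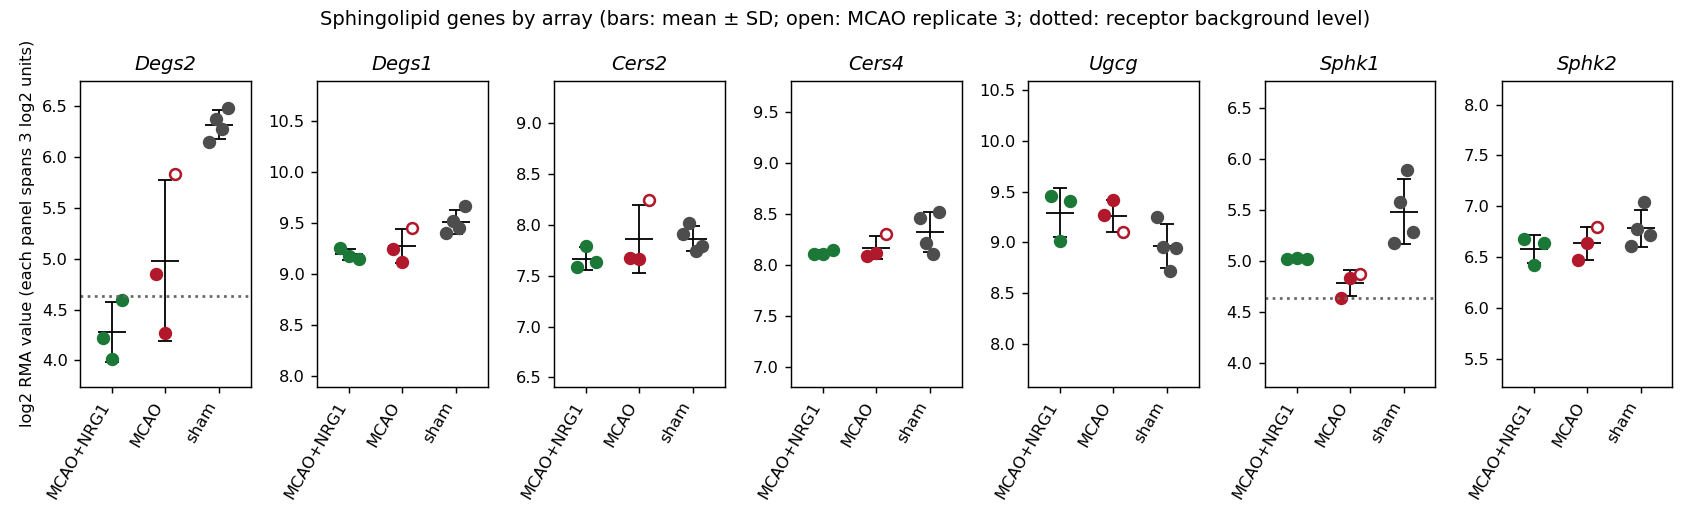
Deposited log2 values of the 7 measured genes in each array, for MCAO+NRG1 (green), MCAO (red, replicate 3 open) and sham (grey). Bars give the mean and SD, every panel spans 3 log2 units, and the dotted line is the background level of 4.64; Degs2 has the widest gap between occluded and sham arrays.

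Sphk1, which encodes the sphingosine kinase of the cytosol, was the other gene with no overlap between MCAO and sham. Its values were 5.02, 5.03 and 5.02 log2 in MCAO+NRG1, 4.64, 4.84 and 4.87 in MCAO, and 5.18, 5.58, 5.90 and 5.29 in sham. The MCAO+NRG1 arrays fell between the other groups without overlapping either of them. The difference between MCAO and sham was −0.70 ± 0.18 (SE, adjusted p = 0.0319 in limma), and −0.75 ± 0.19 without MCAO replicate 3 (adjusted p = 0.0216). The call was lost after median centring (−0.54 ± 0.17, adjusted p = 0.0861) and when the fit left out sham replicate 2, 3 or 4 or MCAO replicate 1 or 2 (adjusted p = 0.0664 to 0.113). MCAO+NRG1 minus sham was −0.46 ± 0.18 (adjusted p = 0.0746), and passed without sham replicate 1 (adjusted p = 0.0286). MCAO replicate 1 lay at the background level of 4.64.

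Sphk2, whose kinase is found in nucleus and mitochondria, showed no such gap. It ranged over 6.42 to 6.68 log2 in MCAO+NRG1, 6.47 to 6.80 in MCAO and 6.61 to 7.04 in sham, so all groups overlapped. MCAO minus sham was −0.15 ± 0.16 (SE, 95% interval −0.49 to 0.19, adjusted p = 0.544 in limma) and changed sign after median centring, to 0.0086. The intervals do not show that the kinase genes responded alike or differently, and no test of that difference was run.

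The ceramide synthase genes Cers2, whose enzyme makes ceramides with very long acyl chains, and Cers4 were not called against sham. Cers2 had 7.58, 7.79 and 7.63 log2 in MCAO+NRG1, 7.67, 7.67 and 8.24 in MCAO, and 7.91, 8.01, 7.74 and 7.79 in sham. In MCAO, 2 arrays lay below all sham arrays and replicate 3 above them all. The mean difference from sham was −0.0027 ± 0.17 (SE), and −0.19 ± 0.14 without replicate 3 (adjusted p = 0.993 and 0.332 in limma). Cers4 ran from 8.11 to 8.15 in MCAO+NRG1, 8.09 to 8.31 in MCAO and 8.11 to 8.52 in sham. Its difference for MCAO minus sham was −0.15 ± 0.15 (adjusted p = 0.517). Both genes had a difference above 0 against sham once arrays were centred on their medians.

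Ugcg, the first enzyme gene of glucosylceramide and ganglioside synthesis, was as deposited the 1 measured gene with a higher mean in both occluded groups. After median centring Cers2, Cers4 and Sphk2 also had higher means in both. Ugcg stood at 9.45, 9.02 and 9.41 log2 in MCAO+NRG1, 9.27, 9.42 and 9.10 in MCAO, and 9.25, 8.95, 8.72 and 8.95 in sham. Sham replicate 1 reached into the range of the occluded arrays. The difference from sham was 0.30 ± 0.17 (SE, adjusted p = 0.255 in limma) for MCAO and 0.33 ± 0.17 (adjusted p = 0.178) for MCAO+NRG1. It was 0.46 ± 0.18 and 0.59 ± 0.18 after median centring (adjusted p = 0.141 and 0.066), and the second of these passed when MCAO replicate 3 was left out as well (adjusted p = 0.041).

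**Figure D2:**
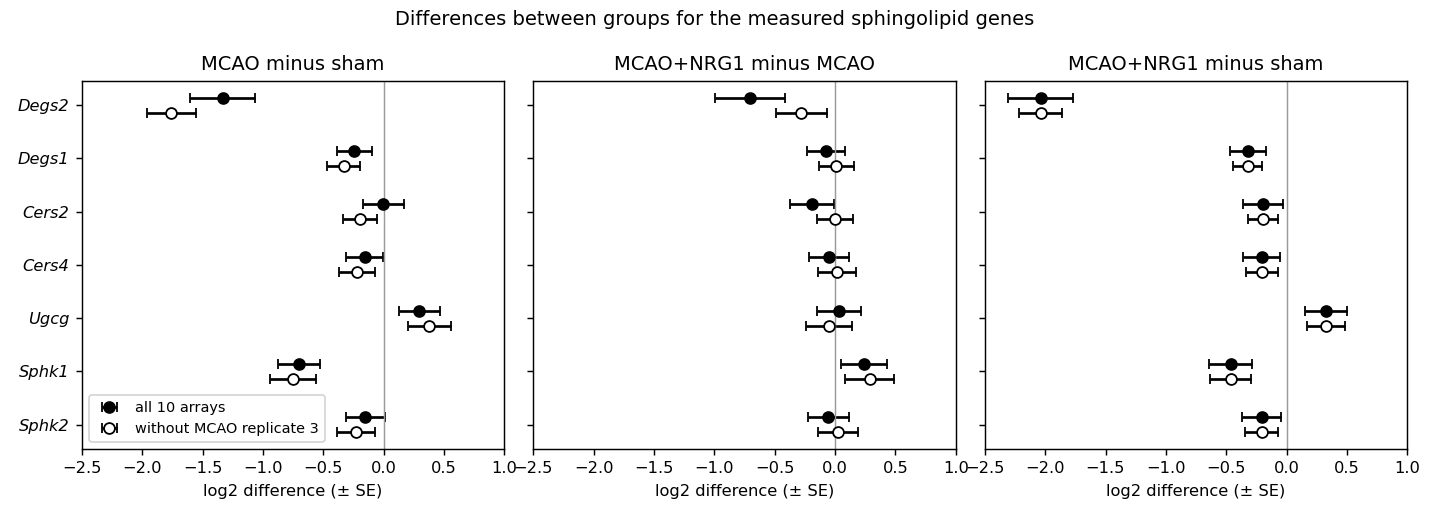
Log2 differences with their SE for the 7 measured genes in the 3 comparisons, from the fit of all 10 arrays (filled) and without MCAO replicate 3 (open). Leaving that array out moved Degs2 from −1.33 to −1.76 for MCAO minus sham and from −0.70 to −0.28 for MCAO+NRG1 minus MCAO.

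Of the 7 measured genes, 2 were called lower and none higher in MCAO against sham at an adjusted p under 0.05, where 6.7% of all tested probe sets were called, 5.61% lower and 1.1% higher. The same 2 genes had an unadjusted p under 0.05, as did 29% of all probe sets, and 6 of 7 differences were below 0, as were 69% of all. In MCAO+NRG1 against sham 1 was called lower, Degs2, against 15.8% of all probe sets called lower, 1.51% higher and 17.3% in either direction. An unadjusted p under 0.05 was found for 3 of 7 genes and 36% of all probe sets, and 6 of 7 differences were below 0, as were 75.9% of all. The arrays of 2 genes lay wholly below sham in MCAO and of 3 in MCAO+NRG1, where 17.8% and 34.2% of all probe sets did. The arrays of no member lay wholly above sham, where 2.74% of probe sets did in MCAO and 2.17% in MCAO+NRG1. The median difference of the 7 genes was −0.15 for MCAO and −0.21 for MCAO+NRG1, close to the −0.16 and −0.24 of all probe sets. In simulated data, the MCAO against sham test over 18511 probe sets found 71% of the probe sets shifted by 1 log2 and 6% of those shifted by 0.5 log2. The simulation shifted 100 probe sets per size, with independent noise and no sets of arrays, whereas 1241 were called in the data. Its shares are therefore not the sensitivity of the comparison made here. Both comparisons use the same sham arrays, and the calls on Degs2 belong to the values for which it was listed.

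NRG1 treatment gave no call among the 7 genes against MCAO. In limma, 0 of 7 had an adjusted p under 0.05 and 1, Degs2, an unadjusted p under 0.05, where 0.0054% and 3.21% of all probe sets did. Differences were below 0 for 5 of 7 genes and 68.6% of all probe sets. Degs2 was −0.70 ± 0.29 log2 (SE) from MCAO (adjusted p = 0.999 in limma). That value rested on MCAO replicate 3: without it the difference was −0.28 ± 0.21, and within the 5 arrays that share exact values it was −0.28 ± 0.23 (adjusted p = 1.00). Sphk1 was the gene with all MCAO+NRG1 arrays above all MCAO arrays, as were 1.47% of probe sets, at 0.24 ± 0.19 (95% interval −0.16 to 0.64, adjusted p = 0.999). Degs1, Cers2, Cers4, Sphk2 and Ugcg lay between −0.19 and 0.03, and their 95% intervals between −0.58 and 0.42.

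Elsewhere in the pathway, a list of 66 further genes was set by function, and 59 had a probe set of their own. In MCAO against sham, S1pr2 fell and Elovl6 rose, and the other 57 did not pass, where 6.7% of all probe sets were called. S1pr2, a receptor for S1P, had 6.21, 5.91 and 5.88 log2 in MCAO+NRG1, 5.79, 6.21 and 6.18 in MCAO, and 6.72, 6.79, 6.96 and 6.78 in sham. All occluded arrays were below all sham arrays, where 17.8% of all probe sets lay wholly below sham in MCAO and 34.2% in MCAO+NRG1. Its difference was −0.75 ± 0.16 (SE, adjusted p = 0.02 in limma) for MCAO and −0.81 ± 0.16 (adjusted p = 0.00742) for MCAO+NRG1. Median centring left it called at −0.59 ± 0.15 and −0.54 ± 0.15 (adjusted p = 0.0469 and 0.0484). Without MCAO replicate 3 the MCAO difference was −0.81 ± 0.16 as deposited (adjusted p = 0.0112). With centring as well it was −0.55 ± 0.16 and no longer called (adjusted p = 0.0846). In the MCAO comparison the call was lost without sham replicate 2, 3 or 4 or MCAO replicate 1 (adjusted p = 0.0607 to 0.0809). The receptor genes S1pr1, S1pr3, S1pr4 and S1pr5 had differences of −0.06 to −0.52 in MCAO and were not called in either comparison.

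Elovl6 encodes the elongase that extends palmitate, the fatty acid used by serine palmitoyltransferase. It had 9.53, 9.17 and 9.16 log2 in MCAO+NRG1, 9.01, 9.47 and 9.71 in MCAO, and 9.19, 8.47, 8.52 and 7.98 in sham. Sham replicate 1 overlapped both occluded groups. The difference was 0.86 ± 0.24 (SE, adjusted p = 0.0454 in limma) for MCAO and 0.75 ± 0.24 (adjusted p = 0.0452) for MCAO+NRG1. Leaving out any 1 array other than sham replicate 1 ended the call for MCAO (adjusted p = 0.0501 to 0.128), and so did any of sham replicates 2 to 4, MCAO replicate 2 or the MCAO+NRG1 arrays for MCAO+NRG1 (adjusted p = 0.0506 to 0.16).

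Against sham, MCAO+NRG1 had 6 of 59 pathway genes called, Elovl6 higher and 5 lower, where 17.3% of all probe sets were called. The lower genes were S1pr2, B4galnt1, a ganglioside synthase gene (−0.77 ± 0.20 SE, adjusted p = 0.0218 in limma), Ormdl3, which encodes an inhibitor of serine palmitoyltransferase (−0.68 ± 0.19, adjusted p = 0.0266), and the S1P exporter genes Mfsd2b (−0.67 ± 0.19, adjusted p = 0.0295) and Spns2 (−0.56 ± 0.18, adjusted p = 0.0461). Mfsd2b averaged 4.58 log2 in MCAO+NRG1, under the background level of 4.64, so the sizes of its differences from sham and from MCAO are not exact. For all 5, the MCAO+NRG1 arrays lay below every sham array, as 20 of the 59 genes did against 34.2% of all probe sets. B4galnt1, Ormdl3, Mfsd2b and Spns2 lost the call after median centring (adjusted p = 0.0853, 0.107, 0.189 and 0.254), after which 3 genes were called higher and 1 lower, and quantile normalization gave 3 and 3. With quantile normalization B4galnt1 and Ormdl3 stayed called lower (adjusted p = 0.0431 and 0.0464), and Mfsd2b and Spns2 did not (0.227 and 0.105). Single arrays also ended these calls: sham replicate 2 or 4 or MCAO+NRG1 replicate 1 or 3 for B4galnt1 (adjusted p = 0.0585 to 0.0961), sham replicates 2 to 4 or MCAO+NRG1 replicate 2 or 3 for Ormdl3 (0.053 to 0.104), sham replicate 2 or 3 or MCAO+NRG1 replicate 2 or 3 for Mfsd2b (0.0692 to 0.147), and any of sham replicates 2 to 4 or of the MCAO+NRG1 arrays for Spns2 (0.0827 to 0.142). In MCAO, Spns2 lay at −0.59 ± 0.18 (adjusted p = 0.059), and passed without MCAO replicate 3 (−0.75, adjusted p = 0.0167) or without sham replicate 1 (adjusted p = 0.0491), but not when MCAO replicate 3 was left out and the arrays were centred (−0.49, adjusted p = 0.127). B4galnt1 and Ormdl3 each had 1 MCAO array at sham level, replicate 3, at 8.68 and 7.81 log2, against 8.61 to 8.78 and 7.56 to 7.77 in sham. Without that array both were called lower in MCAO, B4galnt1 at −0.90 ± 0.15 and Ormdl3 at −0.60 ± 0.14 (adjusted p = 0.0075 and 0.0185), where 19.4% of all probe sets were called. With centring as well, neither was called, at −0.64 and −0.34 (adjusted p = 0.0525 and 0.176).

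By function, serine palmitoyltransferase and its regulators had 1 of 6 measured genes called in MCAO+NRG1 against sham, Ormdl3, and ceramide synthases with acyl chain enzymes 1 of 8, Elovl6. S1P breakdown and export had 2 of 8, S1P receptors 1 of 5 and glycosphingolipid synthesis 1 of 8. None was called among the 4 ceramidases, the 7 genes of sphingomyelin synthesis and breakdown, the 5 of ceramide kinase and lipid transfer and the 8 of glycosphingolipid breakdown. The ceramidase genes, whose enzymes release sphingosine from ceramide, had a higher mean in both occluded groups in 4 of 4 cases, where 75.9% of all probe sets in MCAO+NRG1 and 69% in MCAO had a difference below 0. One of them, Acer1, was under the background level in every group, and its differences are not measured sizes. The median difference of the 4 was 0.24 in MCAO+NRG1 and 0.32 in MCAO, and none had an adjusted p under 0.05 (1 of 4 was called higher in MCAO+NRG1 after median centring). The gene of that centred call is not identified here. It may be Acer1, whose centred means were 4.22 in MCAO+NRG1 and 3.66 in sham, so the call is not read as a rise of ceramidase genes. By array, the mean of the 4 relative to sham ran from 0.12 to 0.36 in MCAO+NRG1 and 0.22 to 0.41 in MCAO. In sham it ran from −0.15 to 0.32, which overlaps both. The 59 genes had a median difference of −0.20 in MCAO+NRG1 and −0.10 in MCAO, beside −0.24 and −0.16 for all probe sets. The shares called, 2 of 59 in MCAO and 6 of 59 in MCAO+NRG1, stand beside backgrounds of 6.7% and 17.3%. Between MCAO+NRG1 and MCAO 0 of 59 were called in limma and 1, Mfsd2b (−0.62 ± 0.21 SE, adjusted p = 0.999), had an unadjusted p under 0.05. The next by p were the ganglioside synthase gene St8sia1 (0.38 ± 0.20) and S1pr3 (−0.42 ± 0.22), both at the same adjusted p.

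**Figure D3:**
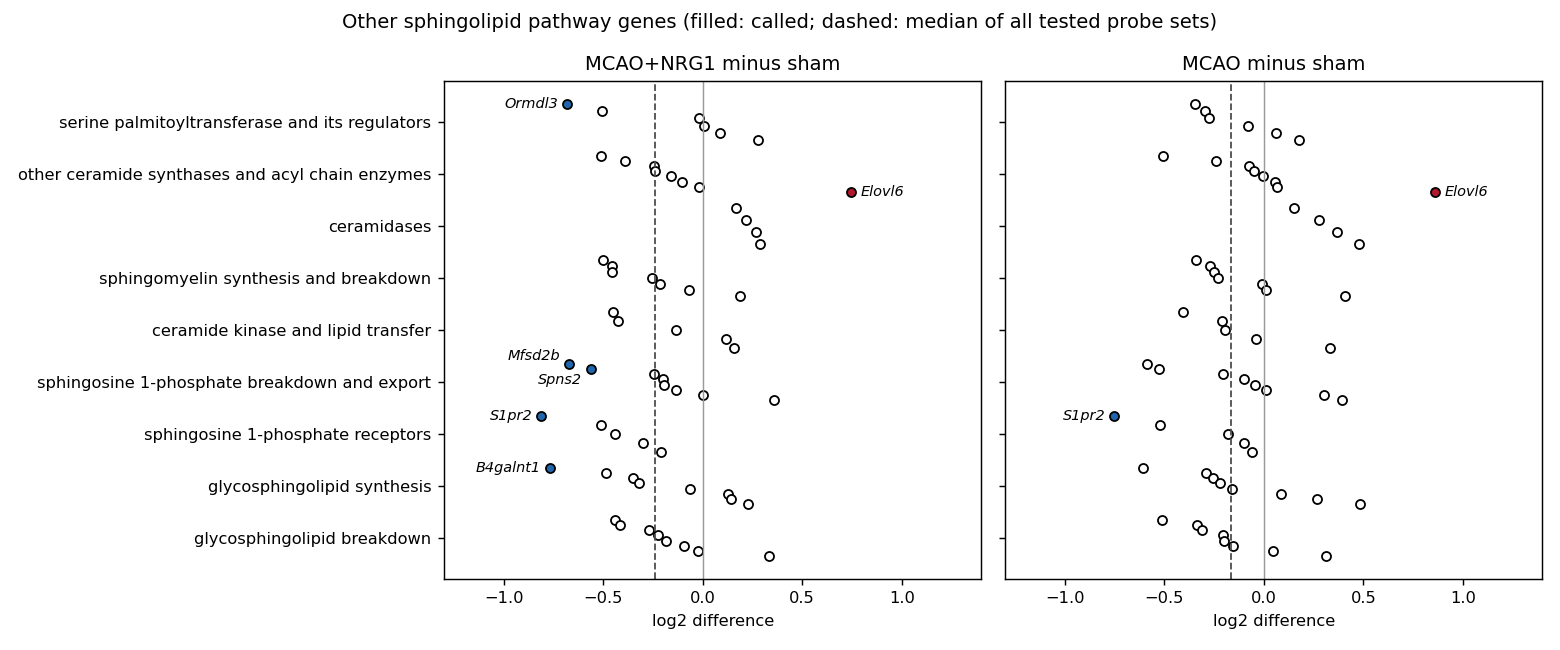
Log2 differences of the 59 other pathway genes by function, for MCAO+NRG1 minus sham (left) and MCAO minus sham (right). Filled points were called higher (red) or lower (blue), and the dashed line is the median of all tested probe sets at −0.24 and −0.16. Called genes are named, 6 on the left and 2 on the right.

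The genes whose values were most like those of Degs2 over the 10 arrays were Ehd2, a gene of caveolae, Prelp, a matrix protein gene, Hes6, a transcriptional regulator gene, Lpar5, a receptor gene for lysophosphatidic acid, and Eln, the elastin gene. Likeness was the mean absolute difference after subtracting each gene's sham mean, among 12601 named probe sets above the background level, and was 0.27 log2 for Ehd2 and 0.34 to 0.37 for the other 4. Ehd2 was −1.77 in MCAO+NRG1 and −1.10 in MCAO relative to sham. Prelp was −1.24 and −1.13, with its 2 values nearer to each other than those of Degs2. The points share the arrays and their levels, and carry no test.

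**Figure D4:**
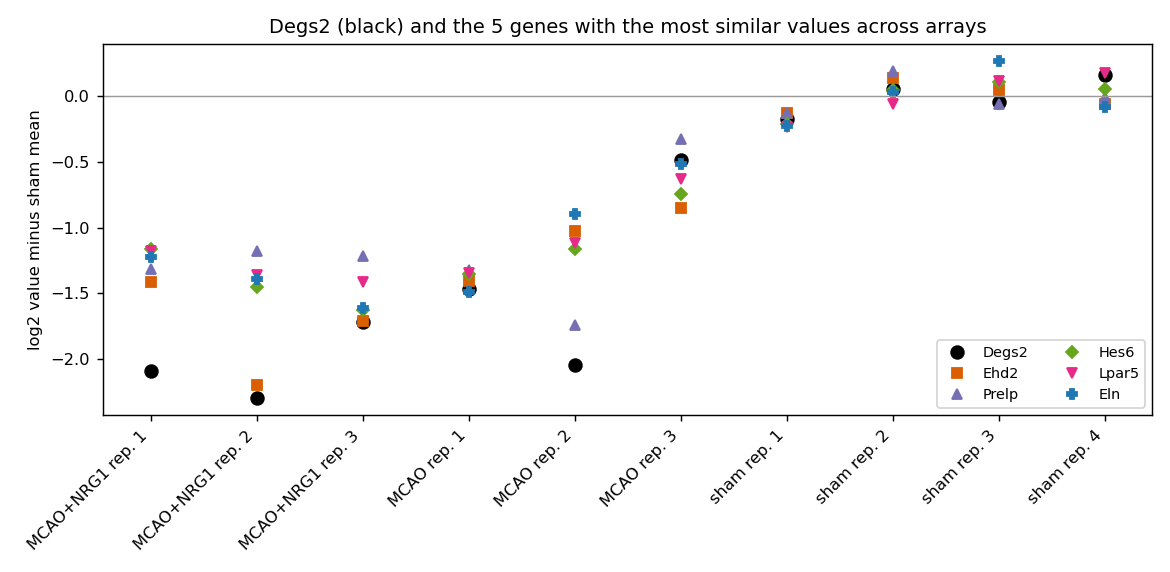
Log2 value minus the sham mean in each array for Degs2 (black circles) and the 5 genes most like it. All 6 genes lie below 0 in the 6 occluded arrays, and MCAO replicate 3 is nearest to sham for each of them. The 5 genes were picked for values close to those of Degs2, itself chosen for its fall, so this pattern largely follows from the choice.

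Markers of vessels and their surroundings moved in the same direction as Degs2 and S1pr2, a direction not particular to them. Differences from sham were below 0 for 75.9% of all probe sets in MCAO+NRG1 and 69% in MCAO. They were also below 0 for 10 and 8 of 10 microglia markers, none of them called. Of 8 measured endothelial markers 7 were called lower in MCAO+NRG1 and 3 in MCAO, among them Sox17 at −1.06 ± 0.15 and −1.09 ± 0.15 log2 (SE, adjusted p = 0.0013 and 0.00346 in limma). Mural cells had 4 and 2 of 7 lower and meningeal fibroblasts 6 and 5 of 9, where 15.8% and 5.61% of all probe sets were called lower in MCAO+NRG1 and MCAO. The mean of the endothelial markers relative to sham ran from −1.42 to −0.61 in MCAO+NRG1, −0.91 to −0.41 in MCAO and −0.12 to 0.12 in sham. For meningeal fibroblasts it ran from −1.18 to −0.58, −0.68 to −0.43 and −0.10 to 0.23, and for mural cells from −0.87 to −0.42, −0.56 to −0.33 and −0.11 to 0.07. After median centring 2 and 1 endothelial, 4 and 1 meningeal and no mural markers were called lower, and none higher. Of all 18511 probe sets, 288 and 197 were then called lower, and 5.38% and 3.26% in either direction. Choroid plexus markers had 5 of 7 called lower in MCAO+NRG1 and none in MCAO, with sham arrays from −0.67 to 1.09. Their median difference from sham was alike in the 2 groups, −0.84 in MCAO+NRG1 and −0.82 in MCAO. Only 4 of the 7 lay above the background level over the arrays, and none was called after median centring. In MCAO against sham, 1 of 9 oligodendrocyte markers and 1 of 8 striatal markers were called higher and 1 of 6 neutrophil markers lower, though only 1 of those 6 lay above the background level over the arrays, and 0 of 7 astrocyte and 0 of 10 microglia markers were called. All 8 striatal markers had a difference above 0 in MCAO minus sham, with a median of 0.40. In MCAO+NRG1 minus MCAO all 8 were below 0, with a median of −0.42, and against sham 3 were above 0 and 5 below. No marker of these lists was called between MCAO+NRG1 and MCAO. The part of these cell types in the differences of Degs2, Sphk1 and S1pr2 was not tested.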

How the data were processed

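The deposited table holds log2 expression values for 36685 probe sets on 10 arrays. The authors obtained them with the RMA method of the oligo package, whose version is not given in the sources used here, nor is it stated which arrays were normalized together. Groups came from the sample titles, and the small number of arrays limits precision. The platform annotation gave 1 gene symbol to 18511 probe sets, which were tested, several to 575 and none to 17599. A model of the 3 groups, with no block, was fitted to these values by limma 3.58.1 (R 4.3.3), using lmFit, contrasts.fit and eBayes. A probe set was called where its p, adjusted by Benjamini-Hochberg over every tested probe set of that comparison, was under 0.05. The fit was tested on simulated data with 100 probe sets shifted per size. The members and lists were chosen with earlier results of these data known. Named genes were the members, the other pathway genes called in each comparison (or the 3 of smallest p), the 5 genes most like Degs2 and up to 2 called markers a list. The alternatives changed the scaling (median centring or quantile normalization), the probe sets (dim ones removed, every probe set kept, or a mean per gene), the test (unadjusted p, trend with robust eBayes, array weights, the replicate number as a block, or a fit of 2 groups) and the arrays (each removed in turn). After seeing the data, 2 more were added: median centring without MCAO replicate 3, and a fit of the 5 arrays that share exact values.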

Additional observations from a re-analysis of the deposited data

How the results depend on the processing

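For MCAO minus sham, the 2 members called became 1 under median centring, quantile normalization, the replicate block, the fit of 2 groups and centring without MCAO replicate 3, 0 when all probe sets were tested and 4 with array weights. Leaving out 1 array gave 0 to 2. Degs2 was the member still called under median centring, with or without MCAO replicate 3, and under quantile normalization. Sphk1 was not called there (adjusted p = 0.0861, 0.156 and 0.0905 in limma). The calls on Degs2 in these counts against sham follow from its selection on that fall and are no support. For MCAO+NRG1 minus sham, the 1 member called became 3 at an unadjusted p, 4 with array weights and 2 with centring without MCAO replicate 3, and 1 to 2 without single arrays. For MCAO+NRG1 minus MCAO, the 0 members became 1 at an unadjusted p and stayed at 0 (0 to 0) without single arrays. Of the other pathway genes, the 2 called in MCAO minus sham became 0 when all probe sets were tested, under the replicate block and when centred without MCAO replicate 3, 1 in the fit of 2 groups, 12 at an unadjusted p and 19 with array weights, and 0 to 8 without single arrays, the 8 without MCAO replicate 3 (where 19.4% of all probe sets were called) or sham replicate 1. The 6 called in MCAO+NRG1 minus sham became 1 when all probe sets were tested or blocked by replicate number, 14 in the fit of 2 groups, 19 at an unadjusted p and 25 with array weights, and 1 to 15 without single arrays, the 15 without MCAO replicate 3 (26.7% of all probe sets), with 12 without sham replicate 1 and 1 without sham replicate 2 or MCAO+NRG1 replicate 3. The 0 called in MCAO+NRG1 minus MCAO became 1 at an unadjusted p and 0 to 0 without single arrays. Apart from the fits of fewer arrays and of more probe sets, the cause was not tested. Same-numbered arrays did not pair, with correlations of their deviations from −0.19 to 0.22.

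Signs turned only for members that were not called. For MCAO minus sham, median centring gave 0.1567 for Cers2, 0.0046 for Cers4 and 0.0086 for Sphk2, centring without MCAO replicate 3 gave 0.0696, 0.041 and 0.0308, quantile normalization gave 0.0573 for Cers2, and leaving out 1 array gave −0.193 to 0.0932 for Cers2. For MCAO+NRG1 minus sham, centring with or without MCAO replicate 3 gave 0.0703 for Cers2, 0.0617 for Cers4 and 0.0584 for Sphk2. For MCAO+NRG1 minus MCAO, Degs1 was 0.0277 centred, 0.0095 with quantile normalization, 0.0217 with array weights, 0.0129 centred without MCAO replicate 3 and 0.0099 in the 5 arrays. Cers4 was 0.0572 centred, 0.0284 with quantile normalization, 0.0208 centred without MCAO replicate 3 and 0.0178 in the 5 arrays, and Sphk2 was 0.0498, 0.0421, 0.0276 and 0.0247 under the same settings. Cers2 was 0.00066 centred without MCAO replicate 3. Ugcg was −0.025 with array weights, −0.0478 centred without MCAO replicate 3 and −0.0507 in the 5 arrays. Leaving out 1 array gave −0.156 to 0.0099 for Degs1, −0.0897 to 0.0178 for Cers4, −0.14 to 0.0247 for Sphk2 and −0.0507 to 0.168 for Ugcg. S1pr2 in MCAO+NRG1 minus sham was called under all 21 alternatives. Low signal limits Degs2, Sphk1 and Mfsd2b, whose values reach the background level.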
